A study of Mus musculus with 2 samples.

Results

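Cd27 (ENSMUSG00000030336) is 1 gene of the 32285 counted, chosen by name, and its raw counts of unique molecular identifiers (UMIs, each standing for 1 captured transcript) were read in each barcode that had 500 genes or more and no more than 10% of its UMIs from mitochondrial genes. The study sorted TCRb+ CD4+ T cells from visceral fat (VAT), taking the stromal vascular fraction, which is what remains once fat cells are removed, and sequenced them by droplet single-cell RNA-seq. There were 2 libraries, 1 titled CD27_KO from CD27-/- mice and 1 titled WT, both with C57BL/6 as the genotype entry. Per the labels' protocols 10 mice were pooled, and whether 10 went into each library is not clear from them. Neither the age of the mice nor a treatment is stated in the sources used here.

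CD27 belongs to the TNF receptor superfamily and gives T cells a costimulatory signal from their surface. Its ligand CD70 appears on activated dendritic cells and lymphocytes, and the bound receptor recruits the adaptors TRAF2 and TRAF5, which lead to NF-kB and JNK signalling and to cell survival. In lymphoid organs the receptor is known from naive and early memory T cells, and its loss is a usual sign of far differentiated effector cells.

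The CD27_KO library held 6853 cells after the filter and the WT library 6338, with medians of 2209 and 1945.5 UMIs per cell. T cell clusters took in 6788 CD27_KO and 6202 WT cells. The sort could be seen in the transcripts, since Cd3e was found in 79.9% of CD27_KO and 75.4% of WT T cells and Cd4 in 30.8% and 25.3%, while Cd8a was found in 0.0589% and 0.0484%. With 1 library of pooled mice per genotype, the variation among mice is unknown and no test across samples was made. All intervals cover 95%, are exact for counting error only and treat each UMI as independent. The libraries share 12 cell barcodes, and none of them belongs to a CD27_KO cell with Cd27.

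The transcript lies on chromosome 6 at 125232622 to 125237010 (mm10, GENCODE annotation, minus strand), inside the longer gene Vamp1, which runs from 125215551 to 125245964 on the plus strand. In CD27_KO T cells Cd27 gave 15 UMIs in 14 cells, or 0.758 per 1000000 UMIs (CPM; interval 0.424 to 1.25). In WT T cells it gave 2072 UMIs in 1578 cells, or 131 CPM (125 to 137). The lowest WT state described below stood 67.0 times above the CD27_KO level. A library with so little Cd27 cannot measure what free RNA adds to WT cells. Stromal-like cells of the WT library, which should lack the gene, had 9.27 CPM, but from 1 UMI in 29 cells, with an interval of 0.235 to 51.7 that takes in the lowest WT state. By state, the CD27_KO level ran between 0 and 8.09 CPM, and the highest of these came from 1 UMI in 39 cells. The labels do not say which exons CD27-/- mice lack, so how the counted tag is lost is not known. That tag was nearly absent from CD27_KO T cells, at 0.758 CPM against 131 CPM in WT T cells. The ligand gene Cd70 had 8 UMIs in WT T cells, 2 in cells with Cd27 and 6 in cells without it, which is too few for a ratio.

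The 250 bases before the RefSeq start of Cd27 are shown because the naive-cell factors TCF1 (gene Tcf7) and LEF1 are compared with Cd27 below. They lie at chr6:125237028-125237277 on the minus strand of GRCm38.p6, and capitals mark the 1 match to a TCF/LEF core.
Cd27 promoter: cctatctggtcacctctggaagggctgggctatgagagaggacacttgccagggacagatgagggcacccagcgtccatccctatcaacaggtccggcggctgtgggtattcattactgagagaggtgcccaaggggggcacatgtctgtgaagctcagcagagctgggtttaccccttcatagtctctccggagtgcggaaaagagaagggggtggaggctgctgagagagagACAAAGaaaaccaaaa
The cores searched on both strands were CTTTGT and CTTTGA, and the match is the reverse complement of CTTTGT, beginning 16 bases before the start. CTTTGT is found in 16.5% of 32851 RefSeq promoters of this length and either core in 27.6%, so a match is common and is a description only.

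Cd27 transcript was found across almost the whole WT pool, in naive-like, regulatory and most type 1 states alike. Its level was lower in a small set of states, Th2-like and Th17-like cells among them. Clusters were made from both libraries without Cd27 among their genes, and 16 of them held T cells. The highest level was in follicular-helper-or-memory-like cells (marked by Izumo1r, Cd200, Tbc1d4 and Slamf6), at 211 CPM (149 to 289, from 38 UMIs in 75 cells). Ikzf2 Treg-like cells, regulatory T cells with Foxp3 and Ikzf2, followed at 160 CPM (147 to 173, from 569 UMIs in 856 cells). Ly6c2 Th1-like cells had 151 CPM (129 to 175). These 3 states differ in lineage and lie next to each other in level.

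A broad middle followed. NK-receptor-like cells, T cells with Klrk1 and Klrd1, had 145 CPM (119 to 176). An unnamed cluster led by Slamf6 and S1pr1, genes of memory and recirculating cells, had 145 CPM (128 to 163). The few interferon-response-like cells had 136 CPM (72.6 to 233, from 13 UMIs in 38 cells). Each of the 3 intervals takes in the level of all WT T cells, 131 CPM.

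Itga1 Th1-like cells, with the collagen-binding integrin of resident cells, had 133 CPM (111 to 159). Areg Treg-like cells, with Areg, Il10 and the IL-33 receptor gene Il1rl1, had 128 CPM (111 to 147). Naive-like cells, the largest state with 1312 cells and with Ccr7 and Lef1, had 125 CPM (112 to 140). The naive-like level therefore lay in the middle of the order and not at its top.

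The lower part of the order began with an unnamed cluster led by Il1rl1 and Ccl1, at 103 CPM (81.6 to 129), and with P2rx7 Th1-like cells at 102 CPM (77.3 to 132). The P2rx7 name rests on 3 of 10 Th1 markers. The Il1rl1 and Ccl1 cluster carries Th2 and innate type 2 markers and also Foxp3 at 80.7 CPM, and its 112 WT cells have a median of 5402.5 UMIs. Its part in the values was not tested, and the Th2-like ratio without it is given with the alternatives.

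The 5 lowest states were cycling-like cells at 74.7 CPM (47.4 to 112), an unnamed Bcl2a1b and Bhlhe40 cluster at 60.8 CPM (38.5 to 91.2), an unnamed Gzma and Cx3cr1 cluster at 58.3 CPM (23.4 to 120, from 7 UMIs in 53 cells), Th2-like cells at 57.4 CPM (41.2 to 77.8) and Th17-like cells at 50.8 CPM (25.4 to 90.9, from 11 UMIs in 89 cells). Together they held 697 cells, 11.2% of the WT T cells, and 105 of the Cd27 UMIs, 5.07% of them. Their intervals overlap each other, so their order among themselves is not fixed. In all 15 pairs of neighbours in the order the interval of the ratio took in 1.

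**Figure D1:**
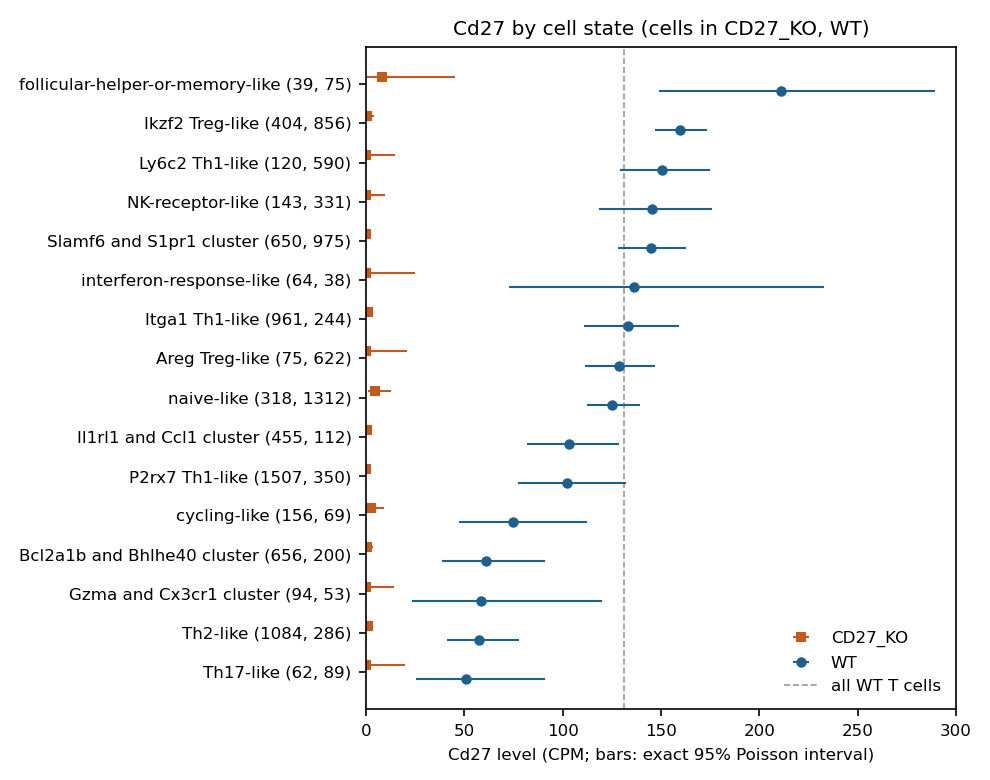
Cd27 level (CPM, x axis) in 16 T cell states of CD27_KO (squares) and WT (circles), with exact 95% Poisson intervals; the dashed line is the level of all WT T cells. The WT points run between 211 CPM in follicular-helper-or-memory-like cells and 50.8 CPM in Th17-like cells, and the CD27_KO points lie at or below 8.09 CPM.

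Set against all other WT T cells, 2 of the 16 states had an interval above 1, 6 an interval below 1 and 8 an interval across 1. The 2 above were follicular-helper-or-memory-like cells, with a ratio of 1.62 (1.14 to 2.23), and Ikzf2 Treg-like cells, with 1.30 (1.18 to 1.44). Of those below, the Th2-like ratio was 0.427 (0.305 to 0.581), the Th17-like ratio 0.385 (0.192 to 0.690) and the Bcl2a1b and Bhlhe40 ratio 0.458 (0.2897 to 0.689). The Gzma and Cx3cr1 ratio was 0.443 (0.178 to 0.915), the cycling-like ratio 0.566 (0.358 to 0.852) and the Il1rl1 and Ccl1 ratio 0.780 (0.614 to 0.978). Beside these ratios, 18.9% of 7757 genes were at least 1.5-fold lower in Th2-like cells than in other WT T cells, 21.8% in Th17-like cells, 18.9% in the Bcl2a1b and Bhlhe40 cluster and 20.4% in cycling-like cells, and 24.8% were at least 1.5-fold higher in follicular-helper-or-memory-like cells. In each of these states the Cd27 ratio itself was past 1.5-fold. Of 7756 other genes, 5.53% were as far below the rest as Cd27 or further in Th2-like cells, 5.29% in Th17-like cells, 7.92% in the Bcl2a1b and Bhlhe40 cluster, 6.45% in the Gzma and Cx3cr1 cluster and 14.2% in cycling-like cells. In follicular-helper-or-memory-like cells 20.6% were as far above or further. These shares were added after the ratios were seen and take in genes with few UMIs in the state.

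States of a kind could also be set against each other. P2rx7 Th1-like cells had 0.678 times the Cd27 level of Ly6c2 Th1-like cells (0.493 to 0.920), while Itga1 Th1-like cells had 0.885 times that level (0.695 to 1.12). Areg Treg-like cells had 0.804 times the level of Ikzf2 Treg-like cells (0.682 to 0.944). Both regulatory states together made up 23.8% of the WT T cells and 37.5% of the Cd27 UMIs, and their median depth was 2710 UMIs, against 1930.5 over all WT T cells. They also held 5174136 of the 15824202 UMIs of all genes in WT T cells, a larger share than of the cells. Their level, which sets Cd27 UMIs over all UMIs, was 150 CPM (140 to 161), against 131 CPM over all WT T cells. The 37.5% is therefore not to be read as a difference of level alone.

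Against naive-like cells, Th2-like cells had 0.458 times the level (0.323 to 0.635), Th17-like cells 0.406 times (0.200 to 0.735) and cycling-like cells 0.596 times (0.373 to 0.910). Follicular-helper-or-memory-like cells had 1.68 times the naive-like level (1.17 to 2.36), and the Slamf6 and S1pr1 cluster 1.16 times (0.982 to 1.36). The Gzma and Cx3cr1 cluster, with genes of cytotoxic cells, had 0.387 times the level of Ly6c2 Th1-like cells (0.153 to 0.815). Th2-like cells had 0.447 times the level of Areg Treg-like cells (0.312 to 0.627), although both states carry Il1rl1, at 806 CPM and 979 CPM. Il1rl1 alone therefore did not mark the states with little Cd27.

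Few transcripts per cell were caught. Among the WT T cells 4624 had no Cd27 UMI, 1214 had 1, 273 had 2 and 66 had 3, and the most in a cell was 6. The share of cells with a UMI moved with depth: it was 31.8% in the deeper and 19.1% in the shallower part of the WT T cells, split at the median, while the level was 124 and 147 CPM. A cell without a Cd27 UMI therefore cannot be called a cell without the transcript.

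Each cell was next thinned to 1300 UMIs by drawing that many of its UMIs at random, which left out 536 WT T cells with fewer. Then 9 of 6734 CD27_KO T cells, or 0.134%, had a Cd27 UMI, with 0.206% before thinning, and 841 of 5666 WT T cells, or 14.8%, with 25.4% before. Among Ikzf2 Treg-like cells 18.2% had a UMI after thinning (15.6 to 21.03) and 43.3% before. Among naive-like cells it was 14.5% (12.6 to 16.5) and 21.4%, and among Th2-like cells 6.14% (3.62 to 9.64) and 11.9%. The Ikzf2 Treg-like and naive-like intervals overlap at equal depth, where before thinning the medians were 3495 and 1864.5 UMIs, while the Th2-like interval lies below both. So does that of the Bcl2a1b and Bhlhe40 cluster, at 6.08% (3.07 to 10.6). The intervals of the other low states overlap the naive-like one. They were 6.90% (2.57 to 14.4) in Th17-like and 7.25% (2.39 to 16.1) in cycling-like cells. The Gzma and Cx3cr1 cluster had 4.17% (0.509 to 14.3) and the Il1rl1 and Ccl1 cluster 11.6% (6.33 to 19.0). Of the 29 WT stromal-like cells 3.45% had a Cd27 UMI, at a median of 2039 UMIs. After thinning it was 0 in 21 cells, with an interval up to 16.1%.

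**Figure D2:**
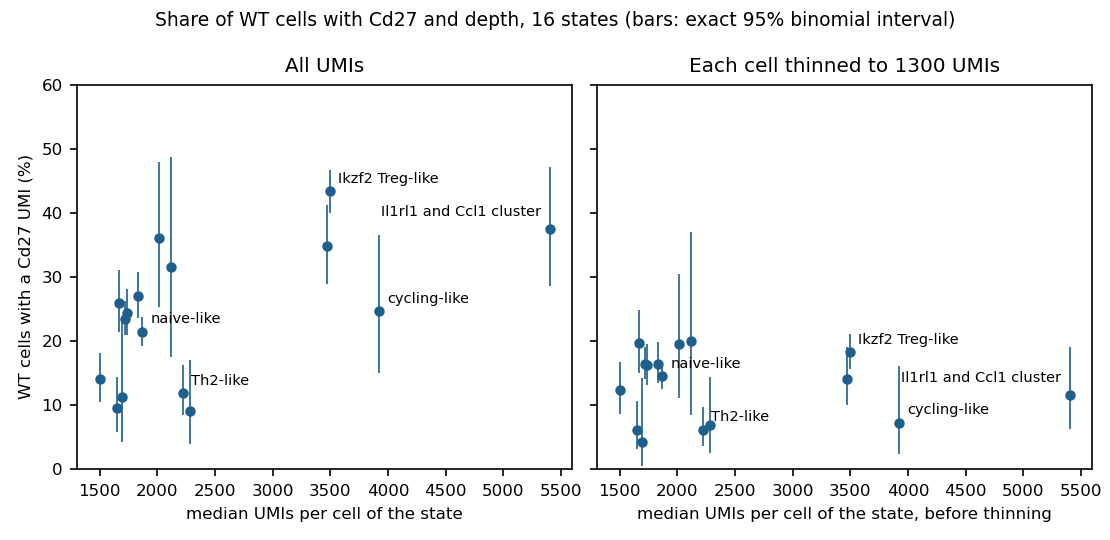
Share of WT cells with a Cd27 UMI (y axis, %) against the median UMIs per cell of the 16 states (x axis), before thinning (left) and after thinning each cell to 1300 UMIs (right), with exact 95% binomial intervals. The Ikzf2 Treg-like share is 43.3% on the left and 18.2% on the right, and the Th2-like share is 11.9% and 6.14%.

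Gates on single genes describe Cd27 without the clusters. Each of 28 gates took the thinned WT T cells with at least 1 UMI of a lineage gene, or of a combination, and set their Cd27 level over that of the other cells. The interval of the ratio lay below 1 in 4 gates, above 1 in 1 gate and across 1 in the rest. The gates share cells and are not independent. The 4 below were all gates on type 2 genes, but other type 2 gates had intervals across 1. The gate on Gata3 had a ratio of 0.911 (0.769 to 1.07, 1141 cells). The gate on Il5 or Il13 had 0.359 (0.0739 to 1.05, from 3 Cd27 UMIs in 50 cells). That on Il4 without Il1rl1 had 0.375 (0.0453 to 1.36, from 2 Cd27 UMIs in 32 cells). Cells with Il1rl1 had 103 CPM (84.8 to 123, 861 cells), against 132 CPM in cells without it, a ratio of 0.776 (0.633 to 0.944). On the log2 scale this was -0.37, and the interval took in 0 when cells were thinned to 1000 UMIs (-0.30, from -0.63 to 0.01) or to 2000 UMIs (-0.09, from -0.34 to 0.17).

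Cells with Gata3, the master factor of type 2 cells, and Il1rl1 but no Foxp3 had 86.7 CPM (61.4 to 119, 337 cells), against 130 CPM in the rest, a ratio of 0.665 (0.467 to 0.919). Cells with Il4, a type 2 cytokine gene, had 3 Cd27 UMIs in 54 cells and a ratio of 0.332 (0.0684 to 0.973). Cells with Il5, which acts on eosinophils, had 1 Cd27 UMI in 34 cells and a ratio of 0.176 (0.00445 to 0.983). Both cytokine gates rest on so few UMIs that their upper bounds lie close to 1. Il13, the third cytokine gene, had 2 Cd27 UMIs in 19 cells and a ratio of 0.632 (0.0765 to 2.29).

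The Il1rl1 cells were next divided by Foxp3. Those with Foxp3 had 116 CPM (69.8 to 181), which overlaps the interval of cells with Gata3 and Il1rl1 but no Foxp3. Cells with both Foxp3 and Il1rl1 had a ratio of 0.905 (0.542 to 1.42, 126 cells), and cells with Foxp3 and no Il1rl1 had 1.19 (0.812 to 1.70, 162 cells). Neither interval left out 1, nor did that of all Foxp3 cells, 1.07 (0.790 to 1.42). At this depth a difference between regulatory cells with and without Il1rl1 was not detectable.

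Genes of naive and memory cells gave small ratios above 1. Slamf6, a receptor of memory and follicular helper cells, had the 1 gate with an interval above 1, at 1.19 (1.003 to 1.4003) in 929 cells. Ccr7, the lymph node homing receptor, had 1.21 (0.973 to 1.48). The naive-cell factors Tcf7 and Lef1 had 1.07 (0.915 to 1.25) and 1.11 (0.954 to 1.30). Type 1 genes sat near 1, with Tbx21 at 0.989 (0.643 to 1.46), Ifng at 0.908 (0.687 to 1.18) and P2rx7 at 1.01 (0.741 to 1.34), and Ly6c2 at 1.18 (0.995 to 1.395). The other costimulatory receptors gave 0.926 (0.810 to 1.06) for Cd28, 1.05 (0.883 to 1.25) for Tnfrsf4 (OX40), 0.965 (0.602 to 1.47) for Tnfrsf9 (4-1BB) and 1.02 (0.881 to 1.17) for Tnfrsf18 (GITR). No large difference of Cd27 with any of these genes was therefore detected cell by cell at this depth. The Tnfrsf9 and Tbx21 intervals reach down to 0.602 and 0.643, and a cell without a UMI of a gene may still carry its transcript.

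**Figure D3:**
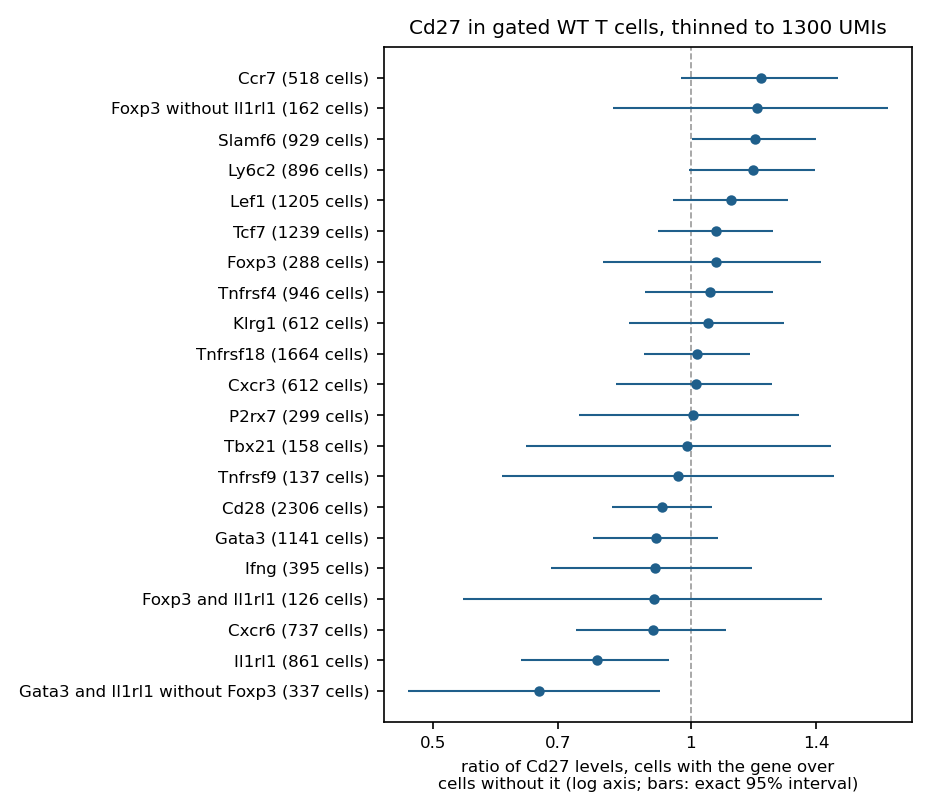
Ratio of the Cd27 level in WT T cells with a UMI of the named gene or combination over the cells without it (x axis, log scale), each cell thinned to 1300 UMIs, for 21 gates with at least 10 Cd27 UMIs; bars are exact 95% intervals. The gates on Il1rl1 and on Gata3 and Il1rl1 without Foxp3 lie below 1, at 0.776 and 0.665.

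**Figure D4:**
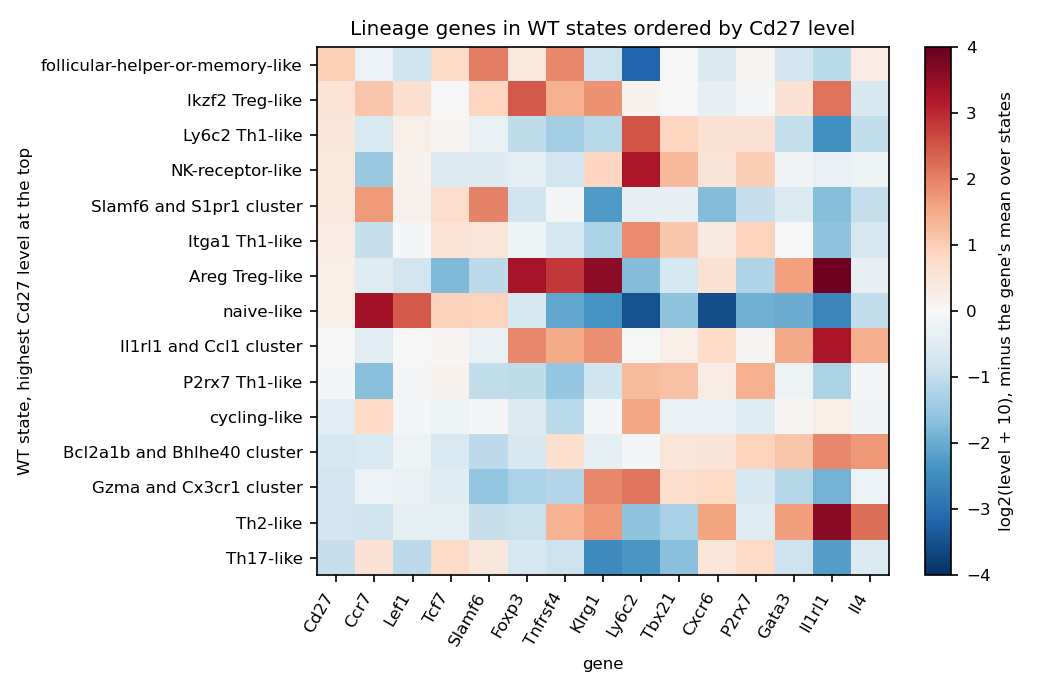
Cd27 and 14 lineage genes (columns) in the 15 WT states with at least 50 cells (lines, in the order of their Cd27 level), as log2(CPM + 10) minus the gene's mean over the states. Il1rl1 is high in Areg Treg-like and in Th2-like cells, at 979 and 806 CPM, which lie apart in the order of Cd27.

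Over the 15 WT states with at least 50 cells, the pattern of Cd27 was compared with that of 7756 other genes by Pearson's r of log2(CPM + 10). These values are a description, as all states come from 1 library and small states have few UMIs. The median r was 0.05, 9 genes reached 0.8 or more and 5 reached -0.8 or less. The most alike were Fam189b (r = 0.88), Ing4 (0.83), Traf5 (0.82), D5Ertd579e (0.82), Ubac2 (0.82), Izumo1r (0.81), Tnfrsf26 (0.81) and Ptpn6 (0.81), and the least alike were Cops9 (-0.82), Pdhx (-0.81), Fastkd1 (-0.81) and Cuedc2 (-0.80). Traf5 is an adaptor of CD27. It had 262 UMIs in all WT T cells, with 38.8 CPM in follicular-helper-or-memory-like cells, 23.3 CPM in Ikzf2 Treg-like cells and 6.996 CPM in Th2-like cells, and no UMI in Th17-like cells. Izumo1r, the folate receptor 4 gene, had 422 CPM in follicular-helper-or-memory-like cells and 26.6 CPM in Th2-like cells. These names did not hold when the states were drawn otherwise: of the 8 most alike genes, 7 stayed with a pseudocount of 1 CPM, 2 with Spearman's correlation, 1 with finer clusters and 0 with clusters of WT cells alone.

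Lineage genes were less alike. Slamf6 had an r of 0.59, Foxp3 of 0.39, Lef1 of 0.28 and Tcf7 of 0.22, while Il4 had -0.46, Cxcr6 -0.40 and Gata3 -0.19. The adaptor Traf2 had an r of -0.01 and the costimulatory receptor gene Cd28 one of 0.00.

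The genes that go with Cd27 were then sought by setting the 841 thinned WT T cells with Cd27 over the 4825 without it. Of 5812 genes with at least 100 UMIs over both, 89 (1.53%) were at least 1.5-fold higher and 173 (2.98%) at least 1.5-fold lower in Cd27-positive cells, and the median log2 ratio was 0.01. With the Cd27-negative cells weighted to the same makeup of states, 85 (1.46%) were higher and 178 (3.06%) lower. With all UMIs of 1578 positive and 4624 negative cells, the negative cells weighted to the depth of the positive cells in 10 bins of UMI count, 63 of 7756 genes (0.812%) were higher and 45 (0.58%) lower. With depth and makeup both made equal, 71 (0.915%) were higher and 50 (0.645%) lower. The weighting by depth was added after the thinned values had been seen.

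The genes behind these counts changed with the draw. Another random thinning of the same cells shared 19 of the 89 higher genes and 39 of the 173 lower genes, and the values at equal depth shared 3 and 5. Only 4 of the 5812 genes were past 1.5-fold in all 4 ways, 1 higher (0.0172%) and 3 lower (0.0516%). Since thinned UMIs are part of all UMIs, the 4 ways are not independent.

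The 1 higher gene was Ccl4, a chemokine of activated T cells, with 37 UMIs in positive and 67 in negative thinned cells and a log2 ratio of 1.66 (1.04 to 2.26). At equal depth it had 143 and 98 UMIs and a log2 ratio of 1.30 (0.88 to 1.73). However, 1 cell with Cd27 held 51 of these UMIs, 21.2% of them, and without it the log2 ratio at equal depth was 0.66 and, with states made equal too, 0.36. The Ccl4 value thus rests in large part on 1 cell.

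The 3 lower genes were Prxl2a, Lrwd1 and Coq2. Prxl2a, a peroxiredoxin-like gene, had a log2 ratio of -1.29 (-2.38 to -0.37) in thinned cells and -0.98 (-1.40 to -0.58) at equal depth, with 71 UMIs in positive and 257 in negative cells. Lrwd1, a subunit partner of the origin recognition complex, had -1.77 (-3.43 to -0.50) and -0.76 (-1.27 to -0.27). Coq2, an enzyme of ubiquinone synthesis, had -0.94 and -0.66, but -0.0036 in another random thinning, and Lrwd1 had -0.34 when thinned to 1000 UMIs. With equal states the thinned Prxl2a value was -0.71 (-1.81 to 0.22). All 3 are of low level, with at most 257 UMIs in a group.

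Tnfsf11, which codes for RANKL and was in the Th2 list, was lower in Cd27-positive cells in all 4 ways, though with states made equal at equal depth by less than 1.5-fold. Its log2 ratio was -1.34 (-1.95 to -0.78) in thinned cells, with 28 UMIs in positive and 406 in negative cells, and -0.77 with equal states. At equal depth it was -0.85 (-1.06 to -0.63), with 256 and 776 UMIs, and -0.47 (-0.70 to -0.24) with equal depth and states. In another random thinning the values were -0.54 and, with equal states, -0.05.

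Gzma, a granzyme of cytotoxic cells, shows how few cells can set a value. It had 2 UMIs in positive and 181 in negative thinned cells, a log2 ratio of -3.98 (-7.04 to -2.11), and was among the lowest genes. At equal depth the value was -0.58, at equal depth and states 0.44, and 1 cell with Cd27 held 36 of its UMIs, 10.1% of them. Thinned to 2000 UMIs the value turned to 1.29. No direction can be given for Gzma. The type 2 cytokine gene Il13 likewise had 102 UMIs in positive and 61 in negative cells, a log2 ratio at equal depth of 1.68, with 29.4% of its UMIs in 1 cell with Cd27. Without that cell it was 0.77. With states made equal too it was 2.43, and 1.54 without that cell. Il4 had 40 and 135 UMIs and -0.87 (-1.44 to -0.32) at equal depth, and -0.35 (-0.96 to 0.24) with states made equal too, which takes in 0.

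**Figure D5:**
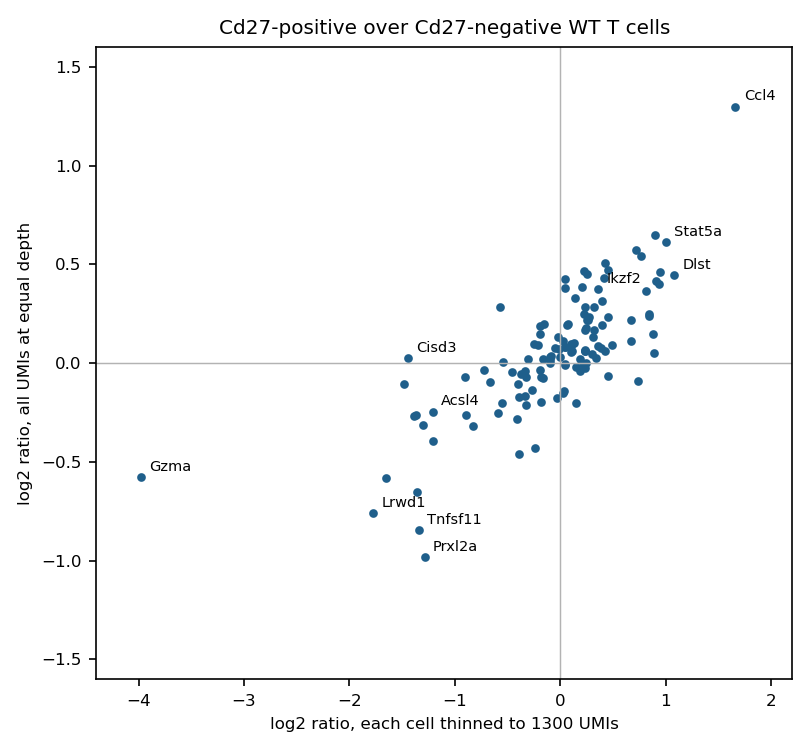
Log2 ratio of Cd27-positive over Cd27-negative WT T cells for 125 named genes, with each cell thinned to 1300 UMIs (x axis) and with all UMIs at equal depth (y axis). Gzma is at -3.98 and -0.58, Ccl4 at 1.66 and 1.30 and Tnfsf11 at -1.34 and -0.85; Cisd3 is at -1.45 and 0.02.

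No measured gene of CD27 signalling had a ratio past 1.5-fold with Cd27, though some intervals reached past it. Of 22 list members 20 were measured, 0 were at least 1.5-fold higher and 0 lower, beside 1.53% and 2.98% of all genes, and their median log2 ratio was -0.05. At equal depth 21 were measured, again with 0 and 0, and the median was 0.06. The adaptor genes Traf2 and Traf5 had log2 ratios at equal depth of 0.14 (-0.26 to 0.55) and -0.03 (-0.44 to 0.38), Traf1 of 0.07 (-0.03 to 0.17) and Traf3 of -0.07 (-0.39 to 0.25). Siva1, which codes for a protein that binds the CD27 tail, had -0.01 (-0.27 to 0.25). Among the downstream genes Nfkb1 had 0.20 (0.05 to 0.34), Nfkb2 -0.46 (-0.92 to -0.02), Birc3 0.02 (-0.21 to 0.25) and Pim1, a survival kinase, 0.04 (-0.03 to 0.10). Of these 9 intervals that of Nfkb2 reached past 1.5-fold. So did those of other members, among them Map3k7 at 0.43 (0.04 to 0.81) and Relb at 0.29 (-0.08 to 0.65). Nfkbie had 0.33 (-0.05 to 0.71) and Ikbkg 0.32 (-0.25 to 0.88). A difference of 1.5-fold in such genes is therefore not excluded.

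Of the lists of T cell programmes, 3 of 7 measured Th2 genes were at least 1.5-fold lower in thinned Cd27-positive cells and 0 higher, beside 2.98% and 1.53% of all genes, with a median log2 ratio of -0.40 beside 0.01 for all genes. The 3 were Tnfsf11, Csf2 at -0.67 (-1.07 to -0.28), a growth factor gene, and Cd200r1 at -0.59 (-1.14 to -0.08), an inhibitory receptor gene. Csf2 and Cd200r1 did not keep their sign in every setting. Csf2 had -0.10 at equal depth and 0.0902 without thinning, with 10.7% of its UMIs in 1 cell with Cd27. Cd200r1 had -0.25 (-0.49 to -0.02) at equal depth and -0.25 (-0.49 to -0.01) with states made equal too. However, it had 0.0253 when thinned to 1000 UMIs, 0.0779 when thinned to 2000 and 0.000313 without thinning. With equal states 2 of 7 were lower and the median was -0.13. At equal depth 12 Th2 genes were measured, of which 1 was higher and 4 lower, beside 0.812% and 0.58% of all genes, or 1 and 0 with states made equal too, beside 0.915% and 0.645%. Il1rl1 itself had -0.40 (-0.64 to -0.17) in thinned cells and -0.11 (-0.21 to -0.01) at equal depth, and Gata3 had -0.05 (-0.26 to 0.16) and 0.08 (-0.03 to 0.18).

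In the Treg core list 2 of 9 measured genes were higher and 0 lower, beside 1.53% and 2.98% of all genes, with a median of 0.24, or 0.06 with equal states. Entpd1, the ectonucleotidase CD39, had a log2 ratio of 0.72 (0.15 to 1.26) in thinned cells and 0.57 (0.24 to 0.91) at equal depth, and Ikzf4 had 0.67 (-0.07 to 1.35) and 0.22 (-0.19 to 0.62). Ikzf2, the Treg factor Helios, had 0.36 (0.21 to 0.51) and 0.38 (0.30 to 0.45), and 0.17 at equal depth and states. Foxp3 had 0.05 (-0.41 to 0.48) and 0.38 (0.17 to 0.59), and 0.12 (-0.09 to 0.33) at equal depth and states, where the interval takes in 0.

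No gene of the naive and recirculation list was past 1.5-fold, of 16 measured, and the median was 0.05. Within it Ccr7 had 0.23 (-0.07 to 0.51) and at equal depth 0.25 (0.07 to 0.43), Tcf7 0.15 (-0.05 to 0.35) and -0.02 (-0.14 to 0.10), and Lef1 0.05 (-0.15 to 0.25) and -0.01 (-0.13 to 0.11). Igfbp4, also of this list, had -0.24 (-0.71 to 0.20) and -0.43 (-0.69 to -0.17). At equal depth the interval of Ccr7 thus lay above 0, that of Igfbp4 below it and those of the factors Tcf7 and Lef1 across it. In the memory and follicular helper list 0 of 11 were past 1.5-fold and the median was 0.23. Izumo1r had 0.43 (0.08 to 0.76) and 0.51 (0.31 to 0.70), Tox 0.40 (0.13 to 0.66) and 0.19 (0.04 to 0.34), and Cd200 0.46 (-0.02 to 0.91) and 0.47 (0.195 to 0.75). Thinned to 2000 UMIs the Tox value was -0.09. Cd40lg, of the same list, went the other way, at -0.33 (-0.51 to -0.17) and -0.17 (-0.26 to -0.08).

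The remaining lists held few genes past 1.5-fold in thinned cells, and are to be read beside the 1.53% of all genes that were higher and the 2.98% that were lower. They were 0 higher and 2 lower of 4 in the cell cycle list (Top2a at -0.90 and Stmn1 at -0.89), 1 and 1 of 7 in the cytotoxic list (Ccl4 and Gzma), 1 and 0 of 3 NK receptor genes (Fcer1g at 0.73), 0 and 1 of 18 residency genes (Bhlhe40 at -0.72) and 0 and 1 of 12 T cell receptor induced genes (Egr1 at -0.83). At equal depth the values were -0.07 for Top2a, -0.26 for Stmn1, -0.09 for Fcer1g, -0.03 for Bhlhe40 and -0.32 for Egr1. The sign of each turned under some setting: without thinning the values were 0.33 for Top2a, 0.0223 for Stmn1 and 0.0199 for Bhlhe40, and thinned to 2000 UMIs they were -0.26 for Fcer1g and 0.0535 for Egr1. The lists for TNF receptors (7 measured), VAT Treg signature (12), Th1 (11), costimulation (12), survival (10) and interferon response (8) held 0 in either direction.

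Vamp1, the gene that overlaps Cd27 on the other strand, was higher in Cd27-positive cells, with a log2 ratio of 0.77 (0.24 to 1.27) in thinned cells, 0.54 (0.23 to 0.85) at equal depth and 0.52 (0.20 to 0.85) with states made equal too. It was the 1 of 7 measured neighbours past 1.5-fold in thinned cells, and thinned to 2000 UMIs its value was 0.18. No source used here states the strand setting of the counting, and whether reads of the overlap add to both genes was not tested. In CD27_KO over WT T cells Vamp1 had a log2 ratio of -0.31, a comparison that uses the same WT cells.

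Within a class of cells, the lineage genes given here were chosen after their values were seen, as those whose interval left out 0 and a few that did not. In 180 naive-like cells with Cd27, set over 1064 without it, Il7r, the IL-7 receptor gene, had a log2 ratio of -0.24 (-0.46 to -0.03), in a class where 2.62% of 1411 genes were at least 1.5-fold higher and 4.32% lower. In 235 regulatory cells with Cd27, set over 1108 without it, Klf2, a factor for recirculation, had 0.50 (0.22 to 0.77), Il10 -0.90 (-1.75 to -0.15), Ccr2, a chemokine receptor gene, -0.40 (-0.74 to -0.08) and Il1rl1 -0.27 (-0.53 to -0.01). Areg, the growth factor amphiregulin, had -0.04 (-0.19 to 0.11) and Foxp3 -0.29 (-0.77 to 0.17). Il10 was the 1 of these genes past 1.5-fold, where 3.62% of 2183 genes were lower and 2.15% higher by that measure. It had 16 UMIs in positive and 141 in negative regulatory cells. Over all WT T cells at equal depth, a wider set of cells, Il10 had -0.04 (-0.36 to 0.28).

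In 155 Th1-like cells with Cd27, set over 902 without it, Ly6c2 had 0.33 (0.07 to 0.58), the residency receptor gene Cxcr6 0.47 (0.01 to 0.92) and Fasl, the death ligand gene, 0.65 (0.03 to 1.22) and Fgl2 0.74 (0.01 to 1.43), while Ifng had -0.61 (-1.33 to 0.05). Fasl had 32 UMIs in the positive cells and Fgl2 23. Over all WT T cells at equal depth, a wider set of cells, Ly6c2 had 0.09 (-0.01 to 0.20) and Cxcr6 -0.15 (-0.30 to -0.01). Fasl had 0.05 (-0.22 to 0.31) there and Ifng 0.02 (-0.18 to 0.21). In 143 cells of the Slamf6 and S1pr1 cluster with Cd27, set over 728 without it, Il18r1, an IL-18 receptor gene, had -0.97 (-1.68 to -0.34) and Slamf6 0.31 (-0.03 to 0.65). Il18r1 had 22 UMIs in positive and 220 in negative cells of the cluster. In Th1-like cells 2.26% of 1684 genes were at least 1.5-fold higher and 4.57% lower, and in the Slamf6 and S1pr1 cluster 2.04% and 4.09% of 1223, so values such as these are not rare there.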

How the data were processed

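The deposited files hold UMI counts per gene and cell, which the authors made with Cell Ranger 6.1.1 per the file headers, against mm10 per the submitters' processing notes. No other setting is stated, and the labels name different kit versions. Later steps used Python 3.11.15, scanpy 1.11.5, numpy 2.4.6, scipy 1.17.1 and igraph 0.11.9. Libraries held 20191704 (CD27_KO) and 16628623 (WT) UMIs. Cells past the filter on genes and mitochondrial UMIs were clustered jointly, without Cd27 (2000 variable genes, 30 components, 20 neighbours, Leiden resolution 1), and named from fixed markers by enrichment. Scrublet marked 0 cells, so doublets remain. Clusters of other cells (65 CD27_KO, 136 WT cells) were left out. Genes needed 100 UMIs. Named genes were the lineage genes, the 12 furthest in each direction (8 at equal makeup), the 8 most and 4 least alike, and up to 4 per list. Coq2 was named after its values were seen. The gene, lists and markers were chosen with earlier results of these data known. Alternatives were other thinning depths and draws, cell filters, clusterings, UMI minimums and scalings; those at equal depth, without the deepest cells, without the Il1rl1 and Ccl1 cluster and the re-thinned gate were chosen after seeing the data. Steps were tested on simulated data. A gene of the lists is not reported here by name.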

Additional observations from a re-analysis of the deposited data

Results flagged for a closer look

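Cd27 was also counted in cells outside the T cell clusters of the WT library, which no comparison above uses, at a level above that of the same cells in CD27_KO. Plasmacytoid-dendritic-like cells, with Siglech and Tcf4, had 0 UMIs in 27 CD27_KO cells, with an interval up to 21.1 CPM. In WT they had 91.5 CPM (interval 63.0 to 129, from 33 UMIs in 55 cells with a median of 5489 UMIs). A cluster of mixed B cell and myeloid genes had 0 UMIs in 27 CD27_KO cells, with an interval up to 22.7 CPM. In WT it had 93.8 CPM (61.3 to 137, from 26 UMIs in 52 cells with a median of 4355 UMIs). As the CD27_KO library has so little Cd27, it cannot show what free RNA adds to these WT values. The WT stromal-like cells had 9.27 CPM (0.235 to 51.7, from 1 UMI in 29 cells). The cause was not tested.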

How the results depend on the processing

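No paired analysis was possible because each genotype has 1 library. As a log2 ratio, Th2-like over other WT T cells stood at -1.23, at -1.25 without the Il1rl1 and Ccl1 cluster and at -1.81 when thinned to 1000 UMIs. Genes past 1.5-fold, 89 higher and 173 lower, came to 58 and 98 when thinned to 2000 UMIs, 32 lower without thinning, 45 lower at equal depth, and 522 and 757 with at least 20 UMIs. At equal makeup, 85 and 178 came to 39 lower without thinning, 50 lower at equal depth, and 535 and 754 with at least 20 UMIs. For Fam189b, r was 0.76 at Leiden resolution 2 and 0.67 with WT clustered alone. Log2 ratios that changed sign were Gzma (1.29 thinned to 2000; at equal makeup 0.17 without thinning and 0.44 at equal depth), Cd200r1 (0.0253, 0.0779 and 0.000313 when thinned to 1000 or 2000 UMIs or not), Csf2 (0.0902), Bhlhe40 (0.0199), Top2a (0.33) and Stmn1 (0.0223) without thinning, Egr1 (0.0535 thinned to 2000), and Fcer1g (-0.26 thinned to 2000, -0.22 without thinning, -0.20 in another draw, -0.0921 at equal depth). The causes were not tested. Of 48 levels by state 45 stayed within their interval; Ikzf2 Treg-like cells had 177 CPM as a mean of cells and 179 CPM without the deepest cells, where the Il1rl1 and Ccl1 cluster had 79.1 CPM.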
